A study of Mus musculus with 10 samples.

Results

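The 40 genes described here mark the identity of macrophages, and were followed in the wall of the mouse aorta 7 days after the start of an experimental abdominal aortic aneurysm (AAA). They were taken by name from a written list, using the gene names of the scanner files. Older names were allowed, so that Emr1 stands for the gene now called Adgre1 and encodes F4/80. All 40 were on the array, among 35527 gene names, and all 40 were among the 22520 names bright enough to be tested. Of these, 5 are markers of the resident type (Mrc1, Cd163, Folr2, Timd4 and Stab1), 15 are markers of recruited or activated cells, and 20 belong to neither set.

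All animals were male C57BL/6J mice of 10 weeks on a normal diet. In the PPE group, the infrarenal aorta was filled for 5 min at 100 mmHg with saline carrying porcine pancreatic elastase at 1.5 U/mL. The sham group underwent the same operation with saline alone. Each group comprised 5 mice, and the whole treated segment of 1 mouse, harvested on day 7, gave the RNA of 1 array. Aortic RNA was labelled with Cy5 and a commercial universal mouse reference RNA with Cy3, so a level is the log2 ratio of aorta over reference. A difference is the PPE mean minus the sham mean of that level, with the standard error of the fit, and was called at a limma adjusted p under 0.01. The model digests elastin at 1 time, and the segment is bulk tissue. In such tissue, fewer cells of a type and less RNA per cell cannot be told apart.

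Macrophages of the arterial wall come from long-lived resident cells, many of which sit in the adventitia, and from blood monocytes that enter after injury. Resident cells of many tissues carry the mannose receptor Mrc1, the haemoglobin scavenger receptor Cd163, the folate receptor Folr2, the phosphatidylserine receptor Timd4 or the scavenger receptor Stab1. Newly recruited monocytes carry Ly6C and Plac8, and as they mature they gain activating Fc receptors, costimulatory molecules and, where they take up lipid or debris, Trem2, Gpnmb and Lgals3. The ETS factor PU.1, encoded by Spi1, is needed for the lineage and binds sites built around the letters GAGGAA.

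The promoters of 5 of the members are shown. They were read from RefSeq promoter sequences on GRCm38.p6 as the 250 bases before the annotated start, 5′ to 3′ on the gene's strand. Capitals mark GAGGAA or its reverse complement TTCCTC. The 5 are an Fc receptor (Fcgr4), a lipid-associated receptor (Trem2), the member with the largest fall (Retnla), the 1 resident-type marker that was called (Mrc1) and the member with the largest rise (Ms4a7).
Fcgr4, chr1:171018676-171018925, plus strand: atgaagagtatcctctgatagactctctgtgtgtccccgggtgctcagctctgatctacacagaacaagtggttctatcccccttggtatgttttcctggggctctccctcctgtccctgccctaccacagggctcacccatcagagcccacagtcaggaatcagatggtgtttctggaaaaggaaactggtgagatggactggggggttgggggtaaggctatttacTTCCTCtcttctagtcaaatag
Trem2, chr17:48346151-48346400, plus strand: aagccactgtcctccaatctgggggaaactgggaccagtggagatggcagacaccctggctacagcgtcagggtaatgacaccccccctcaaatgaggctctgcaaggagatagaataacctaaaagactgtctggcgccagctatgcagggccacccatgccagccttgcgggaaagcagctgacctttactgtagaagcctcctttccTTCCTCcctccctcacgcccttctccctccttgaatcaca
Retnla, chr16:48842359-48842608, plus strand: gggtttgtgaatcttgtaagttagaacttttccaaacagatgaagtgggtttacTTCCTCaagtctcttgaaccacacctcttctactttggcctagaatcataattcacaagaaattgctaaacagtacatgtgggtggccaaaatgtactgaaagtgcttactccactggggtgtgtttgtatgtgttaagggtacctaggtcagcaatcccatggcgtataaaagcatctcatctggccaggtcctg
Mrc1, chr2:14229164-14229413, plus strand: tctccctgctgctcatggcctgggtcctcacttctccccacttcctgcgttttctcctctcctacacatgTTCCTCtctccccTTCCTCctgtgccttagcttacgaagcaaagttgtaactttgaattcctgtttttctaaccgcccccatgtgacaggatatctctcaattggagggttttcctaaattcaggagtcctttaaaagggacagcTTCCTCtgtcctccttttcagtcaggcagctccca
Ms4a7, chr19:11336147-11336396, minus strand: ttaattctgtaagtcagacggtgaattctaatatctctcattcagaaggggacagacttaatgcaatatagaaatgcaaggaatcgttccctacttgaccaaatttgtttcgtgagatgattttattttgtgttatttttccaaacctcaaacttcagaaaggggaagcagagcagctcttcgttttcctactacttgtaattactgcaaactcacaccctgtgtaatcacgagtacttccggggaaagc

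The letters GAGGAA stood 22 bases before the start of Fcgr4, 40 before that of Trem2 and 196 before that of Retnla, counted from the 5′ end of the match. Mrc1 held 3 copies and Ms4a7 none in this window. Of the 40 members, 33 had a promoter in the table, and 17 of them (51.5%) held GAGGAA on either strand, against 25.9% of the 27025 genes in the table. With 1 letter more, GAGGAAG was in 10 of the 33 (30.3%) and in 12% of all genes. The overlapping ETS letters GGAAGT were in 15 of the 33 (45.5%) and in 22.2% of all genes. The longer string GAGGAAGT, which contains both, was in 3 of the 33 (9.1%), namely Fcgr4, Retnla and Ly6c1, and in 2.79% of all genes. The C/EBP letters TTGCGCAA were in 0 of the 33 and in 0.185% of all genes. GAGGAA was found in 2 of 5 resident-type promoters and in 6 of the 11 promoters of recruited and activated members in the table. These counts describe letters in a window, and a link between the letters and the differences was not tested.

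Of the 40 members, 29 were higher in PPE than in sham aorta, 2 were lower and 9 were not called. Over all 22520 names tested, 13.9% were called higher and 9.96% lower. In 28 members every PPE array lay above every sham array and in 2 every PPE array lay below, compared with 15.0% and 10.5% of all names. The median difference over the members was 2.53 on the log2 scale, whereas it was 0.02 over all names. Of the 29 members called higher, 28 rose more than 2-fold and 13 more than 8-fold. The 2 that fell were Cd36 and Retnla. Of the 9 that were not called, 4 were resident-type markers, 2 were receptors for apoptotic cells (Mertk and Axl), and the others were Marco, Apoe and Cd300e.

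**Figure D1:**
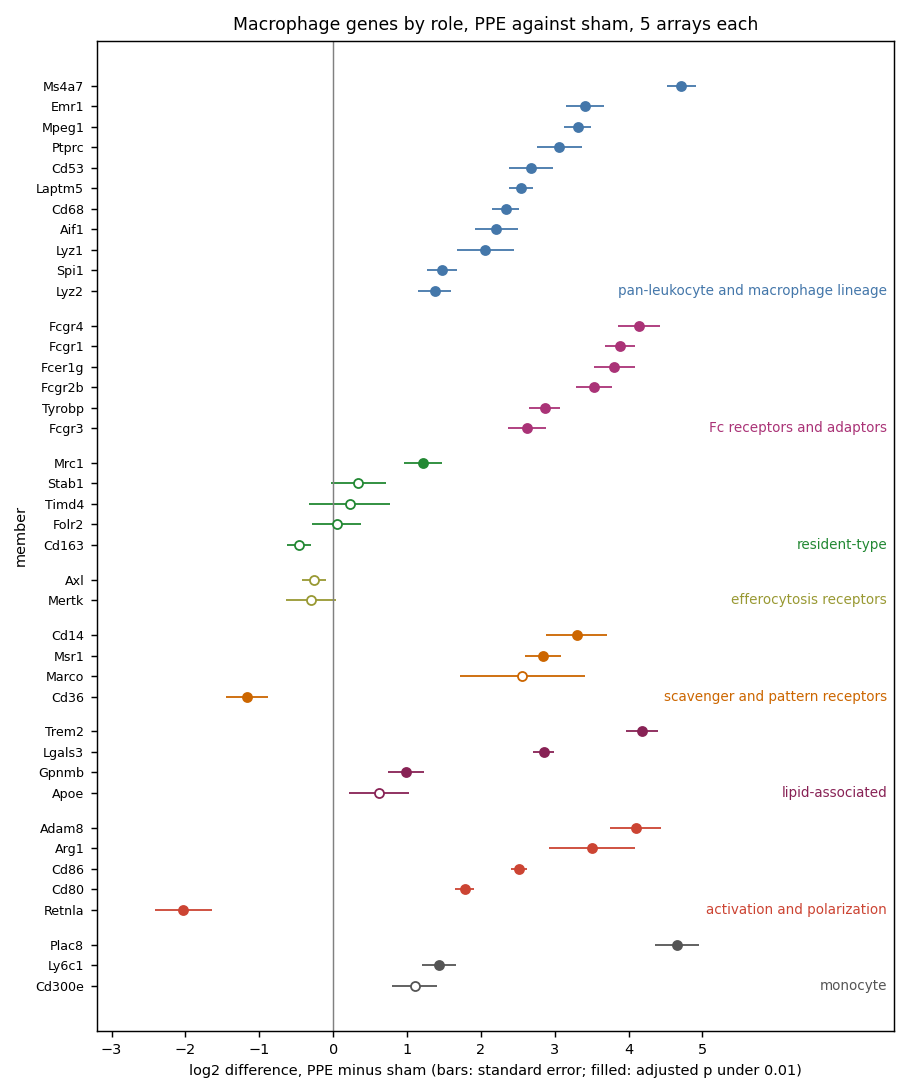
Log2 difference between PPE and sham aorta for the 40 members (x axis, log2 scale; bars are standard errors, 5 arrays per group), ordered by role; filled points were called at an adjusted p under 0.01. All 11 lineage genes and all 6 Fc receptors and adaptors lie to the right of 0, while 4 of 5 resident-type markers and both efferocytosis receptors are open points near 0.

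Some arrays of the 2 groups shared a slide. PPE 1 and PPE 2 lay with sham 1 on slide 1, which was scanned on a day of its own. PPE 3 and PPE 4 lay with sham 2 and sham 3 on slide 2. Sham 4, sham 5 and PPE 5 were each the only array used from slides 3, 4 and 5. Within slides 1 and 2, all 31 called members differed in the direction of the full comparison (62 of 62 values). The arrays of these slides were also part of the fit that gave the calls, so this agreement was not an independent check. Between 37.6% (sham 5) and 65.8% (PPE 1) of spots were well above background in the aortic channel. Sham 5 was the highest sham array for 22 of the 40 members and PPE 1 was the highest PPE array for 25, although it gave no value for Lyz2. Without sham 5 the counts were 29 higher and 2 lower, and without PPE 1 they were 29 and 1. The segment carried smooth muscle transcripts, as its label implies: the mean level in sham aorta was 5.24 for Tagln and 4.29 for Acta2. The 8 smooth muscle markers included 6 that fell and none that rose, with a median difference of -1.80.

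All 11 pan-leukocyte and macrophage lineage genes rose, by 1.37 to 4.71. Ms4a7, which encodes a membrane-spanning protein of the MS4A family found on mature macrophages, showed the largest difference of all members. Its probe lies at chr19:11395903-11395962 on mm9, the build used in the files. Its levels were 0.05, -0.10, -0.04, 0.25 and 0.87 on sham arrays 1 to 5, and 5.33, 4.94, 4.91, 4.72 and 4.71 on PPE arrays 1 to 5. The groups were far apart, and the difference was 4.71 ± 0.19 (SE, n = 5 and 5, limma adjusted p = 1.54e-07), a 26.3-fold increase. Only 16 of the 22520 names had a larger increase.

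Emr1, encoding the pan-macrophage receptor F4/80, was at 0.38, 0.24, 0.14, 0.70 and 1.12 in sham aorta and at 4.82, 3.74, 3.63, 3.94 and 3.53 in PPE aorta. It rose by 3.42 ± 0.26 (adjusted p = 2.76e-06), and every PPE array exceeded every sham array by over 2 log2 units. Mpeg1, encoding the pore-forming protein perforin-2, rose by 3.31 ± 0.19 (adjusted p = 4.95e-07). Cd68, a lysosomal glycoprotein used to stain macrophages, rose by 2.34 ± 0.18 (adjusted p = 3.30e-06). Genes shared with other leukocytes rose too. The difference was 3.06 ± 0.30 for Ptprc, which encodes CD45, 2.68 ± 0.30 for the tetraspanin Cd53 and 2.54 ± 0.16 for the lysosomal protein Laptm5.

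Spi1, the gene of PU.1, was well above background on 1 of 5 sham arrays and on all 5 PPE arrays. Its levels ran from -0.96 to -0.48 in sham and from 0.34 to 1.43 in PPE aorta, a difference of 1.47 ± 0.20 (adjusted p = 1.93e-04). It was 3.58 with the deposited LogRatio and 1.40 in the aortic channel alone, and was called in both. Aif1, which encodes the actin-binding protein IBA1, rose by 2.21 ± 0.29. The lysozyme genes Lyz1 and Lyz2, which are close copies of each other and may share hybridization, rose by 2.06 ± 0.39 (adjusted p = 0.00155) and 1.37 ± 0.23 (adjusted p = 8.35e-04). The Lyz2 spot on PPE 1 was marked as an outlier and dropped, so that Lyz2 rests on 4 PPE arrays. Its levels were 1.73, 1.85, 1.74, 1.83 and 2.46 in sham and 3.87, 2.75, 3.25 and 3.31 in PPE aorta, without overlap. The Lyz2 call was lost with the deposited LogRatio (1.10, adjusted p = 0.0118), and that of Lyz1 after scaling between arrays (1.45, adjusted p = 0.0695).

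All 6 Fc receptors and signalling adaptors rose, with a median difference of 3.67. Fcgr1, Fcgr3 and Fcgr4 encode the activating receptors for IgG, Fcgr2b encodes the inhibitory one, and Fcer1g and Tyrobp encode adaptors whose ITAM motifs carry the signal inward. Fcgr4 was at -1.63, -0.76, -0.93, -0.97 and -0.46 in sham aorta and at 3.81, 3.18, 2.50, 2.71 and 3.77 in PPE aorta. This 17.7-fold increase (4.14 ± 0.29, adjusted p = 1.59e-06) was the largest in the group. Its size varied with slide, at 5.12 within slide 1 and 3.45 within slide 2. Fcgr1 rose by 3.89 ± 0.20 and Fcgr3 by 2.62 ± 0.26. The inhibitory Fcgr2b rose by 3.53 ± 0.24. Fcgr2b and Fcgr3 are similar over much of their length, and cross-hybridization between them was not tested. Fcer1g rose by 3.81 ± 0.28 and Tyrobp by 2.87 ± 0.21.

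Downstream of these receptors, 19 of 20 genes for ITAM signalling rose and none fell, with a median difference of 2.32. Among them, the kinase Fgr rose by 4.34 ± 0.25 and the exchange factor Vav1 by 3.49 ± 0.17. Card9 was the exception, at 0.60 ± 0.17 (adjusted p = 0.0151). Many of these genes also act in neutrophils and lymphocytes.

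The 5 resident-type markers had a median difference of 0.22, which is the value of Timd4, and 1 of 5 was called. Over all names, 13.9% were called higher and 9.96% lower, so the count alone does not set these markers apart. For Timd4 and Cd163 the reference channel was well above background on 0 of 5 sham and 0 of 5 PPE arrays. The ratios of these 2 genes, and so the median, are less certain for that reason. Mrc1, the mannose receptor (probe at chr2:14253273-14253332, mm9), was at 5.23, 4.76, 4.47, 5.49 and 4.98 in sham aorta and at 6.70, 6.43, 5.57, 5.70 and 6.61 in PPE aorta. Its lowest PPE array was just above its highest sham array. Mrc1 rose by 1.21 ± 0.26 (2.32-fold, adjusted p = 0.00347), and this call was lost without sham 2 (1.16, adjusted p = 0.0112). With the deposited LogRatio, Mrc1 differed by 0.58 (adjusted p = 0.231). It was also not called after scaling between arrays (0.48, adjusted p = 0.607) or with median centring (1.62, adjusted p = 0.156). In the aortic channel alone it was called (1.14, adjusted p = 5.38e-04).

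Folr2 was at 4.16, 3.37, 2.97, 4.01 and 3.72 in sham aorta and at 4.13, 4.60, 3.03, 2.99 and 3.73 in PPE aorta. The groups overlapped throughout, and the difference of 0.05 ± 0.33 had a 95% interval of -0.68 to 0.77. In this ratio, the arrays of slide 2 were the lowest of both groups. In the aortic channel alone, sham 2 (log2 signal 10.73) and PPE 3 (11.00) were also the lowest of their groups. Sham 3 (10.93) was above sham 1 (10.82), and PPE 4 (11.54) was above PPE 2 (11.31) and PPE 5 (11.16). The reference channel of the probe was highest on PPE 4 (9.94). Stab1 was at 3.08, 2.90, 2.01, 3.13 and 3.15 in sham and at 3.14, 3.86, 2.51, 2.24 and 4.19 in PPE aorta, with a difference of 0.34 ± 0.37 (interval -0.48 to 1.15). In the aortic channel alone, Stab1 was higher in PPE aorta by 1.13 ± 0.15 (adjusted p = 7.89e-05), and the reference channel of its probe was higher there by 0.99 ± 0.33 (adjusted p = 0.36).

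Timd4 was at 1.30, 1.04, 1.92, 0.53 and 0.77 in sham and at 2.25, 3.22, 0.56, 0.46 and 0.19 in PPE aorta. The PPE arrays of slide 1 were the highest of all 10 and the other 3 PPE arrays were among the lowest 4. The difference was 0.22 ± 0.55, but 1.44 within slide 1 and -0.97 within slide 2. Cd163 was at 1.18, 1.02, 0.31, 1.08 and 0.65 in sham aorta and at 0.54, 0.39, 0.18, 0.52 and 0.30 in PPE aorta, where it was well above background on 2 of 5 arrays. Its difference was -0.46 ± 0.17 (adjusted p = 0.0518, interval -0.83 to -0.09). It was called without sham 3 (-0.60, adjusted p = 0.00674) and in the aortic channel alone (-0.62, adjusted p = 0.00556). With the deposited LogRatio it was -2.16 ± 0.65 (adjusted p = 0.0227), so the size of this difference was not settled. The upper bounds of Folr2, Stab1 and Cd163 were under 1.37, the smallest increase among the lineage genes. That increase, of Lyz2, had its own interval of 0.87 to 1.88, which overlaps that of Stab1. The upper bounds of Timd4 and Mrc1 were 1.42 and 1.79.

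**Figure D2:**
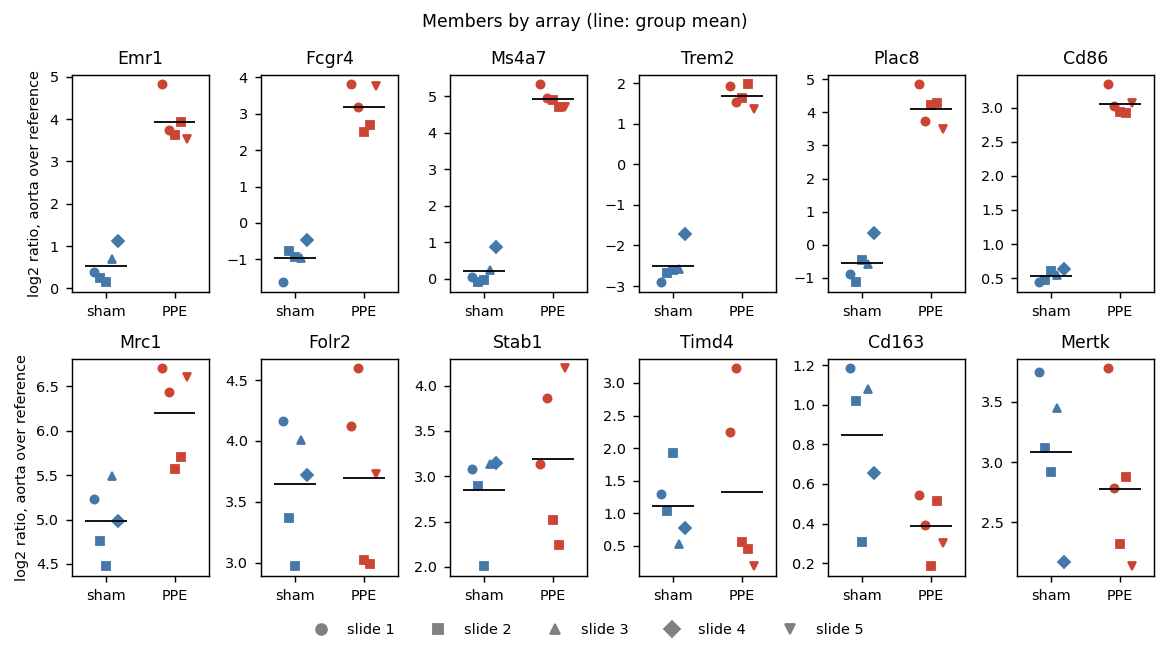
Log2 ratio of aorta over reference on each array for 12 members (y axes differ between panels; lines are group means, marker shapes are slides). In the upper row and for Mrc1 the PPE arrays lie above the sham arrays, while Folr2, Stab1, Timd4, Cd163 and Mertk overlap. The slide 2 arrays are low in both groups for Folr2 and Stab1 in this ratio. In the aortic channel alone PPE 4 is not low for either gene.

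For each array, the median over the 5 resident-type members was taken after subtracting each gene's sham mean. It ran from -0.54 to 0.28 in sham and from -0.61 to 1.01 in PPE aorta, so the groups overlapped. The same median over the 15 recruited and activated members ran from -0.29 to 0.44 in sham and from 2.53 to 4.12 in PPE aorta. Recruited minus resident was between -0.54 and 0.52 on the sham arrays and between 1.81 and 3.79 on the PPE arrays. Of the recruited and activated members, 13 of 15 rose and none fell, with a median difference of 2.85. Their median exceeded that of the resident-type members by over 2 log2 units. The 15 were Cd14, Fcgr1, Fcgr4, Msr1, Marco, Trem2, Gpnmb, Lgals3, Cd80, Cd86, Adam8, Arg1, Cd300e, Plac8 and Ly6c1. Retnla and Cd36, which fell, and Apoe, which was not called, share role groups with some of these but belong to neither set. That none of the 15 fell therefore rests in part on how the set was drawn. No p-value was computed between the sets, because the members were chosen with results of these data known. The sign of the resident-type median was not settled: it was 0.42 within slide 1 and -0.16 within slide 2, -0.23 with the deposited LogRatio and -0.18 without PPE 2. The median of the recruited and activated set was 3.62 within slide 1 and 2.92 within slide 2.

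**Figure D3:**
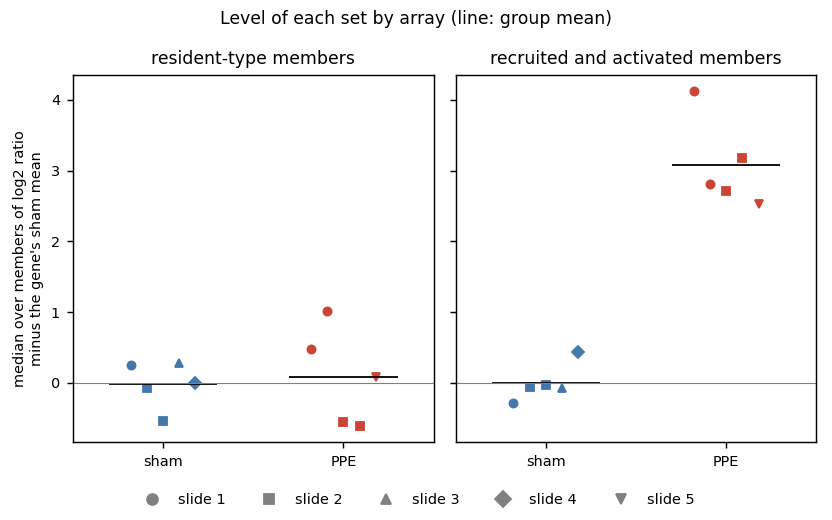
Median over the members of each set of the log2 ratio minus the gene's sham mean, on each array (lines are group means, marker shapes are slides). The recruited and activated set lies between 2.53 and 4.12 on all 5 PPE arrays, whereas the resident-type set spans -0.61 to 1.01 there and overlaps the sham arrays.

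Of a further 14 resident-type genes, 1 rose, 1 fell and 12 were not called, with a median difference of 0.12. With 13.9% of all names called higher and 9.96% lower, these counts do not set the list apart either. The 1 that rose was the fractalkine receptor Cx3cr1 (3.55 ± 0.33, adjusted p = 1.10e-05), which patrolling monocytes also carry. The 1 that fell was the carbonyl reductase Cbr2 (-1.76 ± 0.15, adjusted p = 5.44e-06). The hyaluronan receptor Lyve1, which is also carried by lymphatic endothelium, differed by 0.22 ± 0.31. Of 11 further recruited monocyte genes tested, 8 rose and none fell, with a median difference of 2.92. The largest increases were those of the cytokine Il1b (5.80 ± 0.23), the chemokine receptor Ccr2, by which monocytes leave the marrow (4.45 ± 0.26), and the chitinase-like Chi3l3 (4.09 ± 0.55).

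Of the 3 monocyte members, 2 rose. Plac8 was at -0.88, -1.14, -0.46, -0.58 and 0.36 in sham aorta and at 4.84, 3.73, 4.21, 4.29 and 3.49 in PPE aorta. It rose 25.2-fold (4.65 ± 0.30, adjusted p = 1.12e-06), with no overlap of the groups, and was second only to Ms4a7 among the members. Ly6c1, of the Ly6C family, rose by 1.43 ± 0.23 (adjusted p = 4.64e-04). The probe that stands for it carries accessions of Ly6c1 alone, and a further probe that carries accessions of Ly6c1 and Ly6c2 rose by 1.17 ± 0.19. Endothelium also expresses Ly6c1, and which transcript of the pair was measured cannot be told apart. Cd300e, an activating receptor of monocytes, was at 1.78, 1.11, 0.48, 1.67 and 0.74 in sham and at 3.09, 2.24, 1.81, 1.75 and 2.41 in PPE aorta. Its difference was 1.10 ± 0.31 (adjusted p = 0.0149), and it was called without sham 1 (adjusted p = 0.00987).

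Among the lipid-associated members, 3 of 4 rose. Trem2, a lipid-sensing receptor that signals through Tyrobp, was at -2.91, -2.69, -2.61, -2.57 and -1.71 in sham aorta and at 1.92, 1.52, 1.64, 1.97 and 1.36 in PPE aorta. It rose 18.1-fold (4.18 ± 0.21, adjusted p = 3.32e-07). Lgals3, encoding galectin-3, rose by 2.85 ± 0.14 (adjusted p = 2.70e-07), and all 5 PPE arrays lay within 0.09 to 0.60. Gpnmb, a glycoprotein of phagosomes and lysosomes, rose far less, by 0.99 ± 0.24 (adjusted p = 0.00775). Its groups overlapped, and the call was lost on leaving out any 1 of 7 arrays (sham 1, 2, 3 or 4, or PPE 2, 4 or 5), at adjusted p from 0.016 to 0.022. Apoe, the carrier of cholesterol, was at 4.44 to 5.52 in sham and at 4.64 to 6.70 in PPE aorta and was not called (0.62 ± 0.41, adjusted p = 0.275). It was -0.12 after scaling between arrays, and 1.17 ± 0.18 (adjusted p = 2.17e-04) in the aortic channel alone.

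Of the 5 activation and polarization members, 4 rose and 1 fell. Cd86, a costimulatory ligand of T cells, was at 0.44, 0.48, 0.60, 0.54 and 0.63 in sham and at 3.34, 3.02, 2.93, 2.93 and 3.07 in PPE aorta. It had the smallest standard error of all members and rose by 2.52 ± 0.11 (adjusted p = 1.54e-07). The related ligand Cd80 rose by 1.78 ± 0.13 and the metalloprotease Adam8 by 4.10 ± 0.34. Arg1, the arginase of alternatively activated macrophages, was well above background on 3 of 5 sham arrays. Its levels were 0.64, -0.20, 0.17, -0.02 and 0.11 in sham and 5.73, 3.06, 3.20, 4.46 and 1.77 in PPE aorta. It rose by 3.50 ± 0.58 (adjusted p = 6.79e-04), and the PPE arrays spanned nearly 4 log2 units. The reference channel of Arg1 was well above background on 2 of 5 sham and 5 of 5 PPE arrays, and differed by 0.90 ± 0.34. Its ratio is less certain for that reason, and in the aortic channel alone the difference was 3.49 ± 0.66 (limma adjusted p = 0.00114).

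Retnla, encoding the resistin-like molecule FIZZ1 and often read together with Arg1 as a sign of alternative activation, went the other way. Its probe lies at chr16:48844447-48844506 on mm9. Its levels were 4.87, 4.33, 3.78, 4.74 and 4.38 in sham aorta and 2.64, 3.58, 1.25, 1.72 and 2.76 in PPE aorta. All PPE arrays lay below all sham arrays, and Retnla fell by 2.03 on the log2 scale (SE 0.39, adjusted p = 0.00167). The size of this fall depended on how the ratio was formed. With the deposited LogRatio the difference was -0.02 (adjusted p = 0.971), while in the aortic channel alone it was -5.10 ± 0.35 (adjusted p = 4.14e-07).

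The dye channels were therefore also read apart. In the aortic channel, the log2 signal of Retnla was 12.85, 13.45, 12.84, 13.92 and 13.37 in sham and 7.70, 8.90, 7.41, 7.69 and 9.22 in PPE aorta. In the reference channel of the same spots it was 9.41, 10.42, 10.18, 10.61 and 10.29 on the sham arrays and 6.30, 6.52, 6.38, 6.50 and 6.47 on the PPE arrays. The labels name the same reference RNA for every array, yet this signal was lower by 3.74 ± 0.18 on the PPE arrays (adjusted p = 1.83e-06), where it was well above background on 2 of 5. Aif1 was the only other member whose reference channel was called, higher by 2.03 ± 0.26 on the PPE arrays (adjusted p = 0.00201), and its aortic channel rose by 3.87 ± 0.21. Over all 22520 names, the reference channel was called higher in 0.191% and lower in 0.426%. It moved by more than 1 log2 unit in 5 members (Retnla, Aif1, Lyz2, Mpeg1 and Fcgr4), in each in the direction of the aortic channel, and by less than 0.2 in 22 of 40. For those 5 members the aortic channel differed by more than the ratio did. The cause was not tested.

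**Figure D4:**
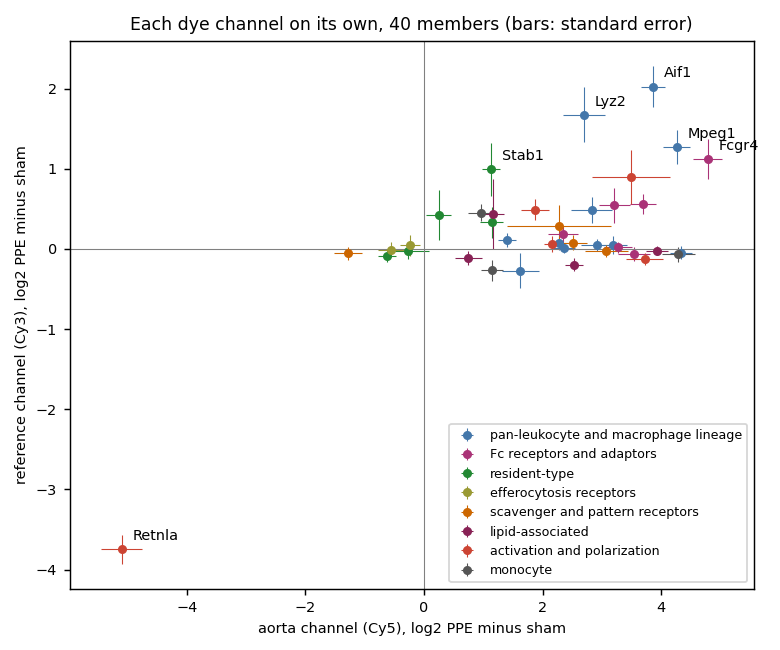
Log2 difference between PPE and sham arrays in the aortic channel (x axis) and in the reference channel (y axis) for the 40 members (bars are standard errors, 5 arrays per group; Lyz2 has 4 PPE arrays). Most members lie close to 0 on the y axis, while Retnla lies at -3.74 and Aif1 at 2.03.

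The 4 scavenger and pattern receptors divided. Cd14, the coreceptor for lipopolysaccharide, rose by 3.30 ± 0.41 (adjusted p = 9.35e-05), from between -2.44 and -1.98 in sham to between -0.04 and 2.22 in PPE aorta. Msr1, the class A scavenger receptor, rose by 2.85 ± 0.25 (adjusted p = 6.36e-06). Marco, of the same class, was the most variable member. It was at 0.05, 1.97, 4.41, 1.41 and 0.99 in sham and at 6.33, 5.26, 2.90, 4.37 and 2.76 in PPE aorta. Sham 3 overlapped the PPE arrays, and the difference of 2.56 ± 0.85 was not called (adjusted p = 0.035). Without sham 3 it was 3.22 (adjusted p = 0.00523), and it was 5.74 within slide 1 and 0.45 within slide 2.

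Cd36, the class B scavenger receptor and fatty acid transporter, was at 3.93, 2.91, 3.72, 3.41 and 2.62 in sham and at 2.32, 2.61, 1.90, 2.51 and 1.41 in PPE aorta. The highest PPE array lay just below the lowest sham array. Cd36 fell by 1.17 on the log2 scale (SE 0.29, adjusted p = 0.00815). Leaving out any 1 of 8 arrays (sham 1, 2, 3 or 4, or PPE 1, 3, 4 or 5) raised the adjusted p to between 0.0102 and 0.0229, and the direction held. Adipocytes and endothelium also express Cd36. Of 6 adipocyte markers none was called, with a median difference of -0.69, and their mean level ran from 5.19 to 6.36 in sham and from 4.33 to 5.95 in PPE aorta. The part of fat in the values of Cd36 and Retnla was not tested.

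Neither efferocytosis receptor was called. Mertk, the receptor tyrosine kinase that binds apoptotic cells through Gas6 and protein S, was at 3.75, 3.12, 2.92, 3.45 and 2.17 in sham and at 3.78, 2.78, 2.32, 2.88 and 2.13 in PPE aorta. Its difference was -0.30 ± 0.34 (interval -1.05 to 0.44) and that of the related Axl was -0.26 ± 0.16 (interval -0.61 to 0.10), and both turned positive with median centring (0.21 and 0.46), a setting that moved the median of all names by 0.39. Of 18 partner genes tested, 5 rose and 2 fell, with a median difference of 0.29. The largest increases were those of Sirpa, the inhibitory receptor for the "do not eat me" signal (3.23 ± 0.13), of the exchange factor Dock2 (1.91 ± 0.23) and of Cd47, the ligand of Sirpa (1.44 ± 0.15). The 2 that fell were the bridging protein Mfge8 (-1.87 ± 0.21), which aortic smooth muscle also makes, and the integrin subunit Itgb3 (-0.66 ± 0.17). Of the ligands of Mertk, Pros1, which encodes protein S, rose by 0.51 ± 0.10 (adjusted p = 0.00263), while Gas6 differed by -0.17 ± 0.21 and was not called.

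Of 18 genes of the growth factor axis and the transcription factors of the lineage, 9 rose, 2 fell and 7 were not called, with a median difference of 0.71. The largest increases were those of the interferon regulatory factors Irf5 (2.87 ± 0.19) and Irf8 (2.43 ± 0.23) and of Spic, the PU.1 relative of iron-recycling macrophages (2.43 ± 0.26). The receptor of the growth factor, Csf1r, rose by 1.99 ± 0.23, while its ligands Csf1 (0.49 ± 0.14, adjusted p = 0.0166) and Il34 (0.32 ± 0.18, adjusted p = 0.21) were not called. The 2 that fell were Pparg (-1.15 ± 0.24) and Cebpa (-0.84 ± 0.21), both of which adipocytes also use.

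Other leukocytes moved with the members. Of 12 neutrophil markers tested, 9 rose and none fell, with a mean level per array from 0.32 to 0.42 in sham and from 2.19 to 3.77 in PPE aorta. S100a8 rose by 5.52 ± 0.38 and Cxcr2 by 3.50 ± 0.15, while Csf3r differed by -0.07 ± 0.12. Of the 9, Mpo, Ltf and Cxcr2 were well above background on 6 arrays over both groups. Ngp and Mmp8 were so on 5, the fewest the filter allowed, and S100a8 and S100a9 on every array. In any list, a marker dim on all sham arrays could be tested only if bright on all PPE arrays. The count of 9 therefore rests in part on the filter, and the sizes for dim markers are less certain. Of 8 dendritic cell markers tested 5 rose (mean level 0.47 to 0.71 in sham, 1.59 to 2.76 in PPE), and of 9 T and NK cell markers 5 rose (-0.54 to 0.27 in sham, 1.13 to 2.24 in PPE). None of 4 B cell markers, 5 mast cell markers or 9 endothelial markers was called. Of 5 lymphatic markers tested 1 rose, Pdpn (2.46 ± 0.15), and of 7 fibroblast markers 3 rose. Ptprc, Cd53, Laptm5, Fcer1g, Fcgr4, Tyrobp, Adam8 and Plac8 are examples of members also expressed by neutrophils or lymphocytes, and the list is not complete. The part of other leukocytes in the difference was not tested for any member.

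**Figure D5:**
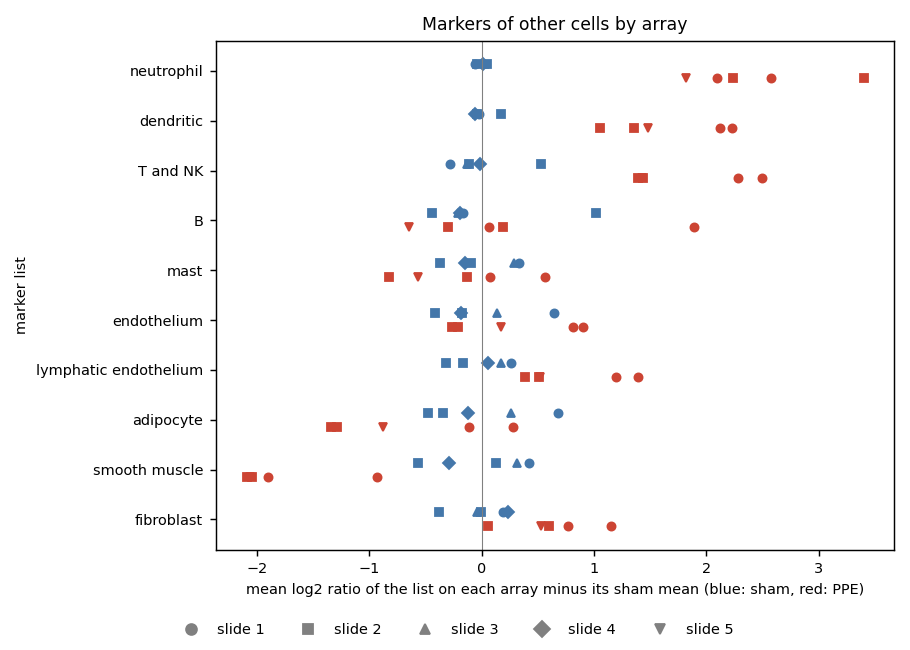
Mean log2 ratio of the tested markers of each other cell type on each array, minus the mean over the sham arrays (blue, sham; red, PPE; marker shapes are slides). Neutrophil, dendritic, T and NK cell and lymphatic endothelium markers lie to the right of the sham arrays on all 5 PPE arrays. Only 1 of the 5 tested lymphatic markers, Pdpn, was called. Smooth muscle markers lie to the left, and B cell, mast cell and endothelial markers overlap.

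In 8 members with more than 1 probe tested, every further probe moved in the same direction as the probe that stood for the gene. The further probe of Emr1 rose by 2.90 ± 0.27 and that of Mpeg1 by 2.78 ± 0.20. The further probe of Cd68 rose by 1.62 ± 0.21, against 2.34 for the brighter one.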

How the data were processed

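Aortic RNA (500 ng, Cy5) of 5 sham and 5 PPE mice and universal mouse reference RNA (Cy3) were hybridized to 2-colour Agilent arrays without dye swap. Spots were extracted by the authors (Agilent Feature Extraction 10.7.3.1). The deposited spot signals and backgrounds are a linear intensity, and deposited flags mark outliers and signal above background. The deposited LogRatio, a log10 ratio, was converted to log2. The matrix deposited for the series equalled log2 of processed red over green on 100% of spots within 1e-04 (column medians -0.16 to 0.12). Per the study's methods, arrays of poor hybridization and outliers in clustering were left out of its analysis, and which ones is not given in the sources used here.

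Mean signals were corrected for median local background by normexp (offset 50) and normalized by loess within arrays (limma 3.58.1, R 4.3.3). Control spots and 176 to 331 outlier-marked spots per array were left out, and spots of a probe were averaged. Probes were tested if well above background in Cy5 on at least 5 of 10 arrays, and the brightest tested probe stood for a gene. Groups were compared unpaired with limma, two-sided, with Benjamini-Hochberg adjustment over all 22520 names and a threshold of 0.01. The script was tested on simulated data. Single channels were fitted likewise on quantile-normalized log2 signals, a check of the reference channel added after the data were seen. Alternatives covered normalization, filters, probes, blocks, SAM (100 relabellings) and each array left out.

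All 40 members matched a RefSeq symbol. Exons and UTRs on mm9 were not used here. The members, role groups and gene lists were chosen with earlier results of these data known. All members are named, and from each pathway list up to 3 of the largest called differences in each direction. A gene that met this rule is not reported here. Card9, Gas6, Pros1, Csf1r, Csf1, Il34, Lyve1 and single markers of other cells were named after their values were seen. Replicates are separate mice, and their number limits the precision.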

Additional observations from a re-analysis of the deposited data

Results flagged for a closer look

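In 4 of 84 groups of arrays (the 40 members and the medians of both sets, in each group), 1 array lay farther from the rest of its group than Dixon's 95% limit allows. Chance alone gives about 5% of groups. Of these, 3 were on sham 5, each towards the PPE arrays. Lyz2 was at 2.46 there, against 1.85 on the next sham array. Trem2 was at -1.71, against -2.57, and Aif1 at 1.43, against 0.84. Stab1 was at 2.01 on sham 3, against 2.90 on the next sham array. Sham 5 had the smallest share of spots well above background (37.6%). All 3 of Lyz2, Trem2 and Aif1 were also called without sham 5, and Stab1 was not called without sham 3.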

How the results depend on the processing

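Of the 31 called members, 17 kept call and direction under all 25 alternatives. Leaving median centring aside, 24 kept them under every alternative in which they were fitted. Of these 24, Spi1 and Arg1 could not be fitted under the filter that asks for signal above background on every array. None of the 31 changed direction where it was fitted. Median centring in place of loess, which moved the median of all names by 0.39, left 17 members higher and 0 lower, with 408 names higher and 8 lower over all. The count of lower members was 1 after scaling between arrays, with the deposited LogRatio or series matrix and without the filter on dim probes. Leaving out 1 array gave 27 to 29 higher and 1 to 2 lower. SAM and an adjusted p under 0.05 each gave 31 higher and 2 lower, and SAM called 4892 names higher and 3260 lower over all, against 3122 and 2244. The looser threshold called 4549 and 3344. The share of higher among all calls was 58.2%, but 98.1% with median centring.

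The numbers of the arrays did not pair them (correlations of same-numbered arrays -0.30 to 0.52, and 3 of 10 arrays were closest to their own number). With a replicate block, 30 members were higher and 2 lower, the medians stayed at 0.22 and 2.85, and Cd300e was called (adjusted p = 0.00536). Slide as a random block (correlation 0.43) gave 30 and 2, and as a fixed block 28 and 2. With outlier-marked spots kept, a setting added after seeing the data, the counts were 29 and 2.

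Within slide 1 the median of the recruited and activated set was 3.62. In the fits over several slides, 5 members that were not called changed sign, and within slide 2 Folr2 (-0.16), Timd4 (-0.97) and Stab1 (-0.07) were below 0. With median centring Mertk was 0.21 and Axl 0.46. After scaling between arrays Folr2 was -0.43, Timd4 -0.21 and Apoe -0.12. With the LogRatio and the series matrix, Folr2 was -0.23 and Timd4 -0.74. In the aortic channel alone Timd4 was -0.26. With slide as a fixed block Folr2 was -0.018 and Timd4 -0.0066, with slide as a random block Folr2 was -0.01, and with scan day Folr2 was -0.14 and Timd4 -0.075. Leaving out 1 array gave -0.18 to 0.22 for Folr2 and -0.25 to 0.51 for Timd4. Dim probes limit Cd163, Spi1, Arg1 and Timd4, which could not be fitted with the filter on all 10 arrays. The causes were not tested.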
